A study of Homo sapiens with 2 samples.

Results

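The SR splicing factors SRSF1, SRSF2, SRSF3, SRSF4, SRSF5, SRSF6, SRSF7, SRSF9, SRSF10 and SRSF11 were examined in direct RNA libraries of GM12878, a human line of B lymphoblasts that carries Epstein-Barr virus. The members were all transcript models assigned to these gene symbols, which came to 10 of 16645 annotated genes and 226 of 237608 models. The series holds 2 libraries of GM12878 cells, replicates 1 and 2 of 1 group, and its labels name no treatment, other genotype or time. Depleted total RNA was read as native strands through a pore from the 3′ end, so each strand gave 1 read and no PCR copies were made. The labels do not say whether the replicates came from separate cultures, so the tests below compare the reads of these libraries and not conditions.

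SR proteins carry an RNA recognition motif at the N-terminus and a tail rich in arginine and serine dipeptides. They bind enhancer sequences in exons, help to define splice sites, and several of them accompany the mRNA to the cytoplasm. Kinases of the CLK and SRPK families phosphorylate the tail. Many SR genes are known to limit their own output through splicing, by including an extra exon that holds a stop codon or by keeping an intron, and such transcripts are substrates of nonsense-mediated decay or stay in the nucleus.

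The extra exons annotated in the nonsense-mediated decay models of SRSF3, SRSF6 and SRSF7 are the textbook cases, and their sequences are printed from the first base of the exon to the first in-frame stop codon, in capitals. They come from the GENCODE 29 transcripts (GRCh38) and are written 5′ to 3′ on the strand of the gene. They lie at chr6:36599821-36599854 on the plus strand for SRSF3 (exon 4 of SRSF3-203, 456 bases), at chr20:43459153-43459304 on the plus strand for SRSF6 (exon 3 of SRSF6-202, 268 bases) and at chr2:38749319-38749346 on the minus strand for SRSF7 (exon 4 of SRSF7-204, 449 bases).
SRSF3 extra exon: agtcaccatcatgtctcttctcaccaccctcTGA
SRSF6 extra exon: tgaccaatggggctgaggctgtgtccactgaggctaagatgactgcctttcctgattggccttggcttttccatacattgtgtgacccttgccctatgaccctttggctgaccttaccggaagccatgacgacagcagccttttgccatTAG
SRSF7 extra exon: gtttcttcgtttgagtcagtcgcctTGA
The stop codon begins at base 32 of the SRSF3 exon, base 150 of the SRSF6 exon and base 26 of the SRSF7 exon. How many reads these models received is given with the other noncoding models.

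The libraries comprised 1360368 reads (replicate 1) and 1510998 reads (replicate 2). A single read equals 0.735 and 0.662 CPM (reads scaled to a common library total), and a gene at 0 could still hold up to 3 reads, 2.21 and 1.99 CPM. The SR genes took 1867 and 2045 of these reads, 0.137% and 0.135% of the libraries. Markers of B cells had reads for 8 of 8 genes, with 11854 and 11837 CPM in sum. The other markers were near the limit, with CD3E at 5 and 16 reads, CD14 at 2 and 2, CSF1R at 2 and 6, COL1A1 at 2 and 3 and APOA1 at 0 and 1, while CD3D, CD3G, LYZ, HBG1, GATA1, ALB and COL1A2 had 0. Intervals on shares are Wilson 95% intervals, which, like that limit of 3 reads, cover counting error only.

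SRSF3, SRSF2, SRSF9 and SRSF7 were the most read SR genes, and SRSF1 was the least read. SRSF3, a short SR protein that also acts in mRNA export, had 333 and 345 CPM in replicates 1 and 2, with a mean of 339 CPM ± 8.35 (SD, n = 2). SRSF2, an SR protein of the nuclear speckles, had 304 and 273 CPM, a mean of 288 CPM ± 22.4 (SD, n = 2). SRSF9 had 201 and 232 CPM and SRSF7, which adds a zinc knuckle to the usual domains, had 207 and 205 CPM. The values of SRSF9 and SRSF7 overlapped, so their order is not resolved, whereas each of the other top neighbours was separated in both libraries.

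A gap of more than the replicate spread followed, down to SRSF5 at 91.2 and 88.7 CPM (mean 89.9 ± 1.75, SD, n = 2). SRSF6 had 84.5 and 56.9 CPM, SRSF4 had 58.8 and 45.0 CPM, and SRSF10 had 32.3 and 52.9. SRSF11 stood at 32.3 and 37.1 CPM and SRSF1, the founding member of the family, at 27.2 and 18.5 CPM, a mean of 22.9 ± 6.13 (SD, n = 2). From SRSF6 to SRSF11 each gene overlapped its neighbour in the order. The highest mean was 14.8 times the lowest, and the 10 genes lay between the 68.7 and 97.8 percentiles of annotated genes by mean level. In bulk RNA, fewer cells with a transcript and fewer transcripts per cell cannot be told apart.

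**Figure D1:**
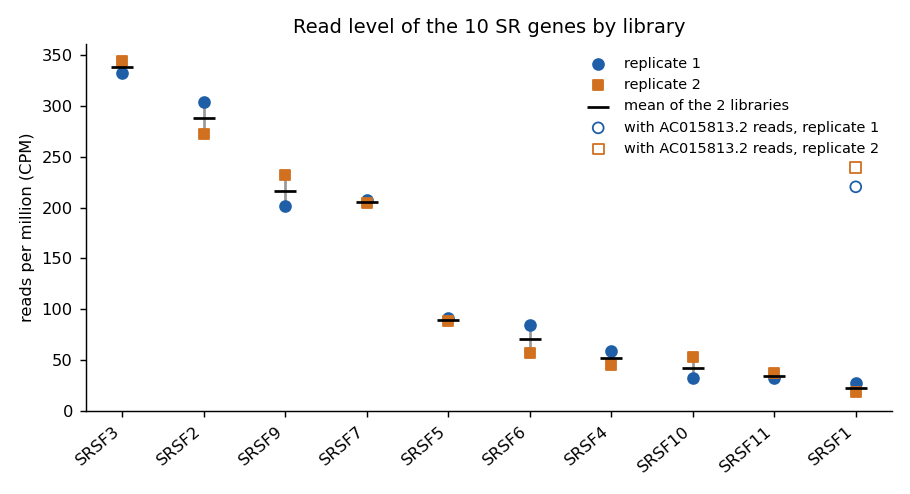
Level of each SR gene in CPM (vertical axis) in replicate 1 (circles) and replicate 2 (squares), with the mean as a bar, genes in order of mean level along the horizontal axis. SRSF3, SRSF2, SRSF9 and SRSF7 lie highest, at 201 CPM or more, and SRSF1 is lowest; the open symbols show SRSF1 with the reads of the overlapping gene AC015813.2 added, at 221 and 240 CPM.

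The low place of SRSF1 depends on which reads of an overlapping gene are counted. AC015813.2 (chromosome 17, 57989038 to 58007246) is annotated on the same strand and covers 97.5% of SRSF1 (chromosome 17, 58003360 to 58007346, minus strand). It had 263 and 334 reads, none of them in a known model, and its single-interval model ENCODEHT000473001 of 1229 bases held 260 and 318. SRSF1 itself had 37 and 28 reads. With the reads of AC015813.2 added, an alternative chosen after seeing the data, SRSF1 had 221 and 240 CPM (mean 230 ± 13.5, SD, n = 2) a mean above that of SRSF9 (217 CPM ± 21.8, SD, n = 2). Reads of these genes could not be told apart here. On the opposite strand, MFSD11 and AC005837.2 at SRSF2 had 17 and 9 reads and 0 and 5 reads, and GATC at SRSF9 had 30 and 40. Direct RNA reads carry their strand, but how the counting used it is not given in the sources used here. The processed pseudogenes SRSF1P1, SRSF9P1 and SRSF10P1 had 0 reads.

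No SR gene passed the test of a difference in level between the libraries. The reads of each gene were set against the totals of the libraries (exact binomial test, two-sided, Benjamini-Hochberg adjustment over 10634 genes), and 0 of 10 members passed 0.05, beside 5.05% of all genes (537). At an unadjusted p under 0.05 there were 2 members, beside 1681 of the 10634 genes. With TMM library sizes and with DESeq2 size factors 0 of 10 members passed the adjusted threshold, beside 554 and 533 of all genes. Counting known models only, against the known reads of each library as totals, SRSF3 passed with 331 and 371 known reads (log2 ratio 0.30, adjusted p = 0.0385, exact binomial test). That is 1 of 8 members tested, beside 18.8% of all genes (1042 of 5528) under this setting. Known models held 55.9% of all reads in replicate 1 and 45.9% in replicate 2. The ratio of SRSF3 is therefore relative to known reads and does not show a rise among all reads. The member farthest from equality was SRSF10, with 44 and 80 reads, a log2 ratio of replicate 2 to replicate 1 of 0.70 and an adjusted p of 0.116. SRSF6 followed with 115 and 86 reads, a log2 ratio of -0.57 and an adjusted p of 0.0870. In both genes over 84% of the reads were genomic, a category described next.

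A known model matches an annotated transcript, and an incomplete splice match (ISM) matches part of it. ISM models of several exons hold a run of its junctions, and ISM models of a single exon hold none. NIC models recombine annotated splice sites and NNC models use at least 1 unannotated site. Genomic models overlap a gene without matching its splicing, and of the SR genomic models nearly all reads fell in single intervals that cross no junction. Over the SR genes together, known models took 54.6% and 48.6% of the reads in the libraries, ISM models 11.4% and 18.5%, NIC models 2.41% and 1.66%, and NNC models 4.12% and 4.35%. Genomic models took 27.5% (25.6 to 29.6%) and 26.9% (25.0 to 28.9%), with 27.2% ± 0.450 as the mean (SD, n = 2), where the whole libraries had 11.0% and 15.3%. Of the 226 SR models 116 rested on a single read (51.3%, against 61.0% of all models), and 88 were read in both libraries (38.9%, against 29.6%).

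**Figure D2:**
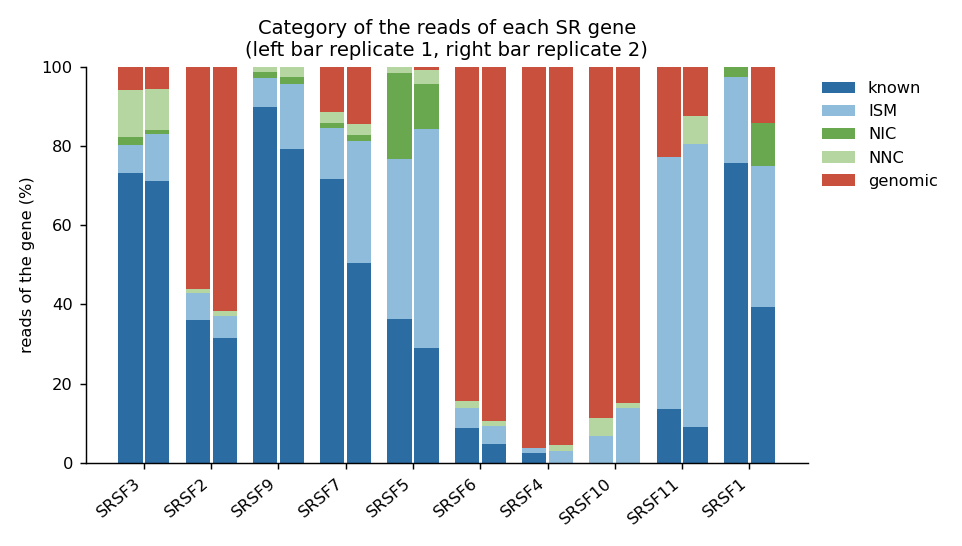
Share of the reads of each SR gene in known, ISM, NIC, NNC and genomic models (stacked, percent), left bar replicate 1 and right bar replicate 2. SRSF4, SRSF6 and SRSF10 are mostly genomic in both libraries, with 84.3 to 96.3%, while SRSF9 has none and is mostly known.

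The genes differed widely in this respect, and SRSF4, SRSF10, SRSF6 and SRSF2 had more genomic than other reads in both libraries. SRSF4 had 96.3% genomic reads in replicate 1 (89.5 to 98.7%) and 95.6% in replicate 2 (87.8 to 98.5%). SRSF10 had 88.6% (76.0 to 95.05%) and 85.0% (75.6 to 91.2%), SRSF6 had 84.3% (76.6 to 89.9%) and 89.5% (81.3 to 94.4%), and SRSF2 had 56.0% (51.2 to 60.7%) and 61.7% (56.9 to 66.2%). SRSF11 had 22.7% and 12.5%, SRSF7 had 11.3% and 14.6%, and SRSF3 had 5.96% and 5.57%. SRSF5 had 0 of 124 reads, which allows up to 2.42%, and 1 of 134. SRSF9 had 0 of 274 and 0 of 351, which allows up to 1.09% and 0.855%. The 37 and 28 reads of SRSF1 held 0 and 4 genomic ones, where 0 of 37 allows up to 8.11%.

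Set among the 3879 annotated genes with at least 100 reads, 3 of the 9 SR genes with that depth lay above the 95th percentile of the genomic share (79.3%), namely SRSF4, SRSF6 and SRSF10. The median over the 9 genes was 17.0%, against 5% over all genes, and 7 of the 9 lay above the latter. SRSF4 exceeded 98.8% of genes and SRSF2 exceeded 88.5%, while SRSF5 exceeded 27.5%. The genomic share passed the test of a difference between the libraries in 0 of 10 members (two-sided Fisher's exact test, Benjamini-Hochberg over 6340 genes), beside 10.4% of all genes. An unadjusted p under 0.05 was found in 1 member, SRSF1, beside 1242 of the 6340 genes.

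**Figure D3:**
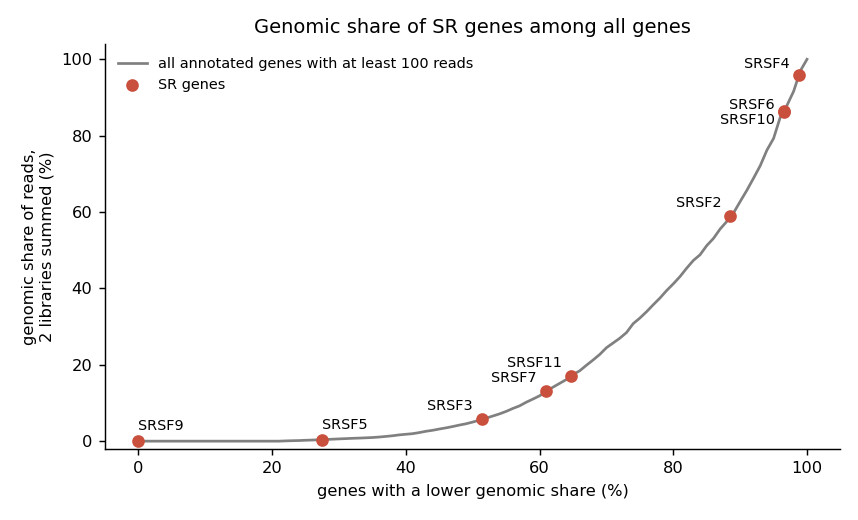
Genomic share of the reads in the libraries summed (vertical axis, percent) against the percent of genes with a lower share (horizontal axis), for all annotated genes with at least 100 reads (line) and the SR genes with that depth (points). SRSF4, SRSF6 and SRSF10 sit at the upper end, with 96.5 to 98.8% of genes below them, and SRSF9 and SRSF5 at the lower end.

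Among the SR proteins with a single recognition motif, SRSF3 and SRSF7 were mostly in known models and SRSF2 was mostly genomic. By coding known models alone SRSF3 was not above SRSF2. Such models held 31.3% and 21.1% of the reads of SRSF3, 34.3% and 27.9% in SRSF2 and 69.5% and 48.2% in SRSF7. In SRSF2 (chromosome 17, 76734115 to 76737374, minus strand), 1 genomic model, ENCODEHT000533002, took 232 and 250 of the 414 and 412 reads. The listed length of this single interval is 2160 bases, longer than the last exon of the coding model SRSF2-202 (1040 bases) and shorter than the longest annotated exon of a coding model of the gene (2350 bases, in SRSF2-203). The coding model SRSF2-202, with 3 exons and 1927 bases, had 140 and 112 reads, below the genomic model in each library. SRSF2-203 had 2 and 2. The most read ISM model, ENCODEHT000533033 with 2 exons, had 26 and 20 reads.

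In SRSF7 (chromosome 2, 38743599 to 38751494, minus strand), the coding model SRSF7-201 with 8 exons had 151 and 115 reads. SRSF7-209 and SRSF7-202, also coding, both leave out coding sequence of SRSF7-201, which is why the sequences are shown. SRSF7-209 lacks an exon of 36 bases at chr2:38746144-38746179, printed in capitals as a whole. SRSF7-202 lacks the last 9 bases of another exon, which are in capitals at the end of chr2:38748047-38748085. Each is from GENCODE 29 (GRCh38), 5′ to 3′ on the minus strand.
SRSF7 exon absent from SRSF7-209: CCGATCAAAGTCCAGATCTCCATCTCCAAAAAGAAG
SRSF7 exon end absent from SRSF7-202: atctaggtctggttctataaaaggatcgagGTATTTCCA
SRSF7-209 had 29 and 18 reads, 14.8% (10.5 to 20.4%) and 12.1% (7.78 to 18.3%) of the reads in coding known models. SRSF7-202 had 15 and 11 reads, 7.65% and 7.38%, and SRSF7-201 held 77.0% and 77.2%. The coding sequence is 714 bases in SRSF7-201, 678 in SRSF7-209 and 705 in SRSF7-202. The intervals of these 3 models overlapped between the libraries. SRSF7-210, a further coding model with 5 exons, had 1 and 5 reads, 0.510% (0.0901 to 2.83%) and 3.36% (1.44 to 7.61%). The most read ISM model, ENCODEHT000286182 with 7 exons, had 10 and 27 reads, and the most read genomic model, ENCODEHT000286111 of 855 bases, had 20 and 29.

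In SRSF3 (chromosome 6, 36594353 to 36605600, plus strand), the most read model was not coding. SRSF3-205, annotated as a retained intron and made of a single exon of 2376 bases, had 184 and 244 reads. The coding model SRSF3-202, with 6 exons and 4222 bases, had 142 and 110. The ratio of SRSF3-205 to SRSF3-202 was 1.30 and 2.22, a mean of 1.76 ± 0.652 (SD, n = 2), so SRSF3-205 was above the coding model in each library. SRSF3 also had the most read unannotated spliced model of the family. This NNC model, ENCODEHT000607132, with 5 exons and 821 bases, had 41 and 43 reads. A further NNC model, ENCODEHT000607508, with 5 exons and 1391 bases, had 6 and 7. The most read ISM model, ENCODEHT000607629 with 5 exons, had 15 and 16 reads, and the most read genomic model, ENCODEHT000607753 of 634 bases, had 23 and 24.

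Of the SR proteins with a pair of recognition motifs, SRSF9 was read mainly as its spliced coding model and SRSF4 and SRSF6 mainly as genomic intervals. SRSF9 (chromosome 12, 120461668 to 120469793, minus strand) had the highest known share of the family, 89.8% and 79.2%. Its coding model SRSF9-201, with 4 exons and 1201 bases, had 210 and 214 reads, and the most read ISM model, ENCODEHT000687773 with 3 exons, had 19 and 55. SRSF1-201, the coding model of SRSF1, had 26 and 10 of the 37 and 28 reads of its gene. That was 70.3% in replicate 1 and 35.7% in replicate 2 (20.7 to 54.2%), where ISM models also held 10 reads. The most read ISM model, ENCODEHT000473030 with 3 exons, had 6 and 2 reads.

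SRSF4 (chromosome 1, 29147743 to 29181987, minus strand), which has the longest arginine-serine tail of the family, had 80 and 68 reads, of which 77 and 64 fell in ENCODEHT000386867, a genomic interval listed at 929 bases. The coding model SRSF4-201 had 2 and 0 reads, and 0 of 68 allows a share of up to 4.41%. The most read ISM model, ENCODEHT000387147, had 1 and 1. In SRSF6 (chromosome 20, 43457928 to 43464247, plus strand), ENCODEHT000633712, listed at 1827 bases, had 86 and 54 reads and ENCODEHT000633625, listed at 556 bases, had 11 and 22. The coding model SRSF6-201 had 10 and 4 reads. The intervals of SRSF4 and SRSF6 were shorter than the last exons of their coding models, 1484 and 3545 bases, which make up 62.2% and 82.0% of those models. The positions of genomic reads within a gene were not analysed here, so intervals inside a last exon and intervals that run into an intron cannot be told apart by length.

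SRSF5 (chromosome 14, 69726900 to 69772005, plus strand) was divided mainly among ISM, known and NIC models. Its coding model SRSF5-217, with 8 exons and 1500 bases, had 34 and 23 reads. A single-exon ISM model, ENCODEHT000367250 of 722 bases, had 17 and 33, and the NIC model ENCODEHT000365421, with 8 exons and 1190 bases, had 20 and 5. The ISM share of SRSF5 was 40.3% (32.1 to 49.1%) in replicate 1 and 55.2% (46.8 to 63.4%) in replicate 2. The only genomic read, in replicate 2, leaves that category at 0.388% of the reads over both libraries.

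The remaining pair departs from the canonical SR proteins. SRSF10, known as a repressor of splicing when dephosphorylated, lies on chromosome 1 (23964804 to 23980927, minus strand), and none of its 44 and 80 reads fell in a known model, which allows a known share of up to 6.82% and 3.75%. Its genomic reads were divided among ENCODEHT000346329 (1908 bases, 15 and 27 reads), ENCODEHT000346556 (listed at 1 base, 10 and 29 reads) and ENCODEHT000346280 (1661 bases, 14 and 9 reads). The most read ISM model, ENCODEHT000346676, had 1 and 2 reads. SRSF11 (chromosome 1, 70205682 to 70253052, plus strand) had 6 and 5 known reads, of which 2 and 1 were in the coding model SRSF11-203 with 13 exons. A single-exon ISM model, ENCODEHT000502488 of 1394 bases, held 20 and 32 of its 44 and 56 reads, and the genomic model ENCODEHT000502499 of 1052 bases held 10 and 7.

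Models of a single exon, whatever their category, therefore held much of the family. Their share was 46.6% and 52.4% in SRSF3, where SRSF3-205 is the main one, 68.2% and 69.6% in SRSF11, 13.7% and 25.4% in SRSF5 and 8.39% and 13.7% in SRSF9. The median over the 9 members with at least 100 reads was 58.8%, against 21.9% over all 3879 genes, with 6 of the 9 above the latter and none above the 95th percentile of 95.9%.

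The order by level changed with the reads counted. By reads in known and ISM models only, an alternative chosen after seeing the data, the order was SRSF3, SRSF9, SRSF7, SRSF2, SRSF5, SRSF11, SRSF1, SRSF6, SRSF10 and SRSF4. SRSF2 then had 130 and 101.3 CPM, SRSF6 had 11.8 and 5.29, SRSF10 had 2.21 and 7.28, and SRSF4 had 2.21 and 1.32 CPM. SRSF3 was first in both orders, and both count its single-exon retained intron model, with 184 and 244 reads. By reads in coding known models, also chosen after seeing the data, SRSF9 had 210 and 214 and SRSF7 had 196 and 149. SRSF3 had 142 and 110 and SRSF2 had 142 and 115, so the first place of SRSF3 did not hold.

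The known share was lower in replicate 2 for 9 of the 10 members and 0 in both libraries for SRSF10. The difference passed the threshold in 3 of 10 members (two-sided Fisher's exact test, Benjamini-Hochberg over 6340 genes), near the background of 27.1% of all genes, where 1704 of the 1721 calls were also lower in replicate 2. The median difference was -4.57 percentage points over the members and -8.62 over all genes. SRSF7 fell from 71.6% to 50.5% (adjusted p = 2.97e-06), SRSF9 from 89.8% to 79.2% (adjusted p = 0.00307) and SRSF1 from 75.7% to 39.3% (adjusted p = 0.0221), all by Fisher's exact test. The call in SRSF1 was lost when models with a single read were left out (-31.6 percentage points, adjusted p = 0.0634) and when genomic models were left out of the denominator (-29.8 percentage points, adjusted p = 0.0913), beside -36.4 percentage points with all reads. The other members did not pass. SRSF3 had a known share of 73.1% and 71.2%, SRSF5 of 36.3% and 29.1%, SRSF2 of 35.99% and 31.6%, SRSF11 of 13.6% and 8.93% and SRSF6 of 8.70% and 4.65%. Their intervals overlapped between the libraries, for SRSF3 at 68.8 to 76.9% and 67.2 to 74.9%.

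Reads in annotated noncoding models were mostly in models typed as retained intron, and most of these reads came from SRSF3. The type belongs to the model, and how much intron the reads hold was not tested. Noncoding here means an annotated type other than protein coding. The models typed as nonsense-mediated decay that had reads do have an annotated coding sequence. Over the known reads of the SR genes, 23.5% in replicate 1 (21.0 to 26.2%) and 35.3% in replicate 2 (32.4 to 38.3%) were in models typed as retained intron. Over all protein-coding genes the corresponding shares were 4.65% and 8.09%. Models typed as nonsense-mediated decay held 9 of 1019 and 11 of 994 known reads, 0.883% (0.465 to 1.67%) and 1.11% (0.619 to 1.97%), and the shares over all protein-coding genes, 0.765% and 0.731%, lay within these intervals. All noncoding types together held 24.7% and 36.8% of the SR known reads.

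SRSF3 had 57.1% of its known reads in noncoding models in replicate 1 (51.7 to 62.3%) and 70.4% in replicate 2 (65.5 to 74.8%). SRSF5 followed with 17.8% and 35.9%, SRSF9 with 14.6% and 23.0%, SRSF2 with 4.70% and 11.5%, and SRSF7 with 2.97% and 4.49%. These 5 genes had at least 50 known reads, and their median was 19.1%, against 1.72% over 2292 protein-coding genes. All 5 lay above that median, and SRSF3 exceeded 97.3% of the genes. The shares were higher in replicate 2 in all 5, and 1 of 5, SRSF3, passed the test of the difference (13.3 percentage points, adjusted p = 0.00422, two-sided Fisher's exact test, Benjamini-Hochberg over 2239 genes), beside 10.6% of all genes. Of the 238 calls over all genes, 236 were also higher in replicate 2.

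**Figure D4:**
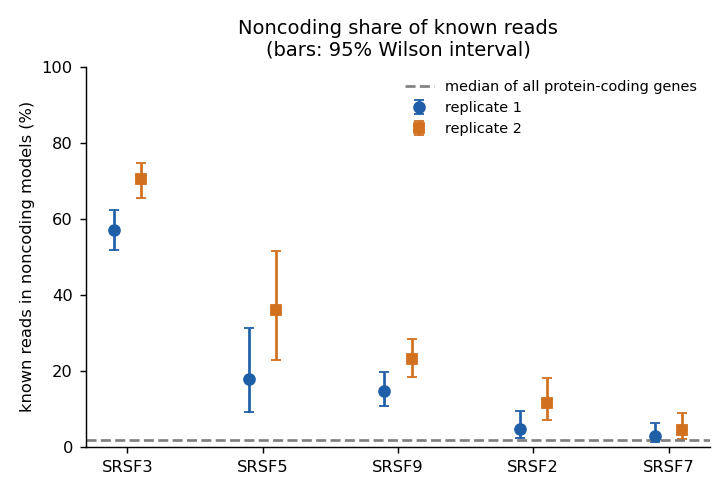
Share of known reads in annotated noncoding models (vertical axis, percent) for the SR genes with at least 50 known reads, replicate 1 (circles) and replicate 2 (squares), bars showing Wilson 95% intervals and the dashed line the median of protein-coding genes, 1.72%. SRSF3 is highest, at 57.1 and 70.4%, and replicate 2 is the higher point for each gene.

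The models behind these shares were few. SRSF3-205 held 428 of the reads in question, and the spliced retained intron model SRSF3-207, with 3 exons and 2655 bases, had 5 and 14 reads. In SRSF9 the single-exon model SRSF9-203 of 1704 bases had 23 and 48 reads, and SRSF9-204, with 2 exons and 1446 bases, had 12 and 16. SRSF5-208, with 2 exons and 947 bases, had 8 and 14 reads. SRSF2-208, the only nonsense-mediated decay model with at least 10 reads, has 4 exons where SRSF2-202 has 3, and it had 6 and 6 reads. Its annotated coding sequence has 663 bases, as in SRSF2-202. SRSF2-208 has no internal exon inside an intron of SRSF2-202, since all of its 1359 bases lie in exons of that model.

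The single-exon models overlap coding sequence as well as intron. Of the 2376 bases of SRSF3-205, 943 lie in exons of SRSF3-202, 817 of them in the last exon, and 1433 lie in its introns. Of the 1704 bases of SRSF9-203, 470 lie in the last exon of SRSF9-201 and 1234 in the intron before it. A read without a junction does not by itself show which of these bases it covers, and how much intron the reads of SRSF3-205 and SRSF9-203 hold was not tested. The sequences show where intron and exon meet in these models, with the coding exon in capitals and retained intron in lower case, from GENCODE 29 (GRCh38). They lie at chr6:36601122-36601220 on the plus strand, around exon 4 of SRSF3-202, and at chr12:120462133-120462192 on the minus strand, at the start of the last exon of SRSF9-201.
SRSF3-205 around coding exon 4 of SRSF3-202: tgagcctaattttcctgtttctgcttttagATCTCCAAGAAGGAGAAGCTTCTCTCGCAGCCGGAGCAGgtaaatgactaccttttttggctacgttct
SRSF9-203 across the last intron-exon boundary of SRSF9-201: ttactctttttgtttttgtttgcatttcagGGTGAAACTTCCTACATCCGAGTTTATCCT
In the spliced transcript only the capitals remain from each stretch, 39 bases in SRSF3 and 30 of the last exon in SRSF9.

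**Figure D5:**
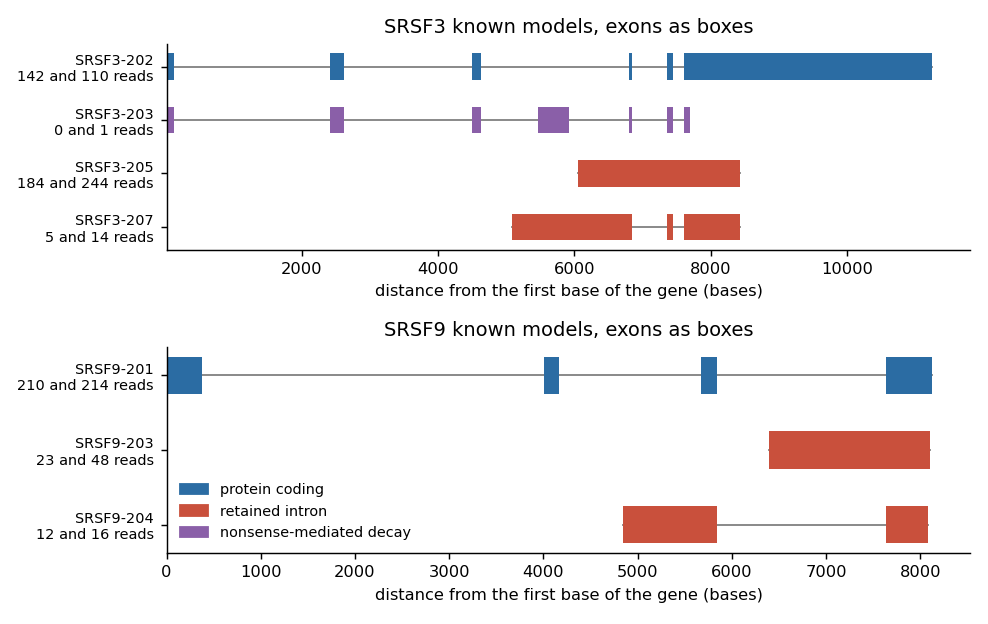
Exons (boxes) of known models of SRSF3 and SRSF9 against distance from the first base of the gene in bases, coloured by annotated type, with the reads in replicates 1 and 2 beside each name. SRSF3-205 and SRSF9-203 are single boxes that span intron and part of the last coding exon, and the extra exon of SRSF3-203 lies before the start of SRSF3-205.

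Reads assigned to the annotated models with an extra exon were close to the limit of detection. Exon positions of ISM, NIC and NNC models were not analysed, so reads of such models that hold an extra exon are not counted here. The 9 members with a coding reference model have 20 annotated nonsense-mediated decay models, 6 of which had a read. Of the 13 that hold an internal exon inside an intron of the reference, 3 had a read, with 0 reads in replicate 1 and 4 in replicate 2. SRSF3-203, whose extra exon is printed above, had 0 and 1 reads, beside 142 and 110 in SRSF3-202. SRSF7-204 had 0 and 2 reads and SRSF2-204 had 0 and 1. SRSF6-202 had 0 in both libraries, where SRSF6-201 itself had 10 and 4 reads, so the depth at SRSF6 allows little to be said. The retained intron model SRSF3-207 spans the extra exon of SRSF3 inside its first exon of 1753 bases, whereas SRSF3-205 starts after it.

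Counted by exon number alone, models with more exons than the coding reference held 13 of 1348 non-genomic reads in replicate 1 (0.964%, 0.564 to 1.64%) and 21 of 1483 in replicate 2 (1.42%, 0.928 to 2.16%). SRSF2 contributed 8 of 182 (4.40%) and 12 of 158 (7.59%), of which SRSF2-208 gave 6 and 6. SRSF3 had 1 of 426 and 1 of 492, SRSF7 had 2 of 250 and 4 of 264, and SRSF9 had 0 of 274 and 1 of 351. SRSF1 had 1 of 37 (2.70%) and 3 of 24 (12.5%, 4.34 to 31.0%), the highest mean share of the family, and SRSF6 had 1 of 18 and 0 of 9. SRSF5 had 0 of 124 and 0 of 133 and SRSF11 had 0 of 34 and 0 of 49. SRSF4 had 0 of 3 in each library, which leaves its share unknown up to 56.1%. Without models that rested on a single read the mean share over the libraries was 0.693% in place of 1.19%. SRSF1 then had a mean of 3.97% and SRSF2 of 4.64%, so the first place of SRSF1 did not hold. A longer exon that holds a stop codon, an exon exchanged for another, or an extra exon in a model that lacks other exons, is not counted by this measure.

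Among the 73 NIC and NNC models of the SR genes, 52 had a single read and 3 had at least 10. These are the SRSF3 and SRSF5 models named above. Beside them stood 95 ISM models with 590 reads in the libraries together, 35 known models with 2013 and 23 genomic models with 1064. ISM models of subtype suffix match the 3′ end of an annotated transcript, and those of subtype both also match a 5′ end. Models of these subtypes together held all ISM reads of SRSF3 (32 and 61) and 97.2% and 96.8% of those of SRSF7. The median over 2583 genes with at least 50 ISM reads was 84.7%. In SRSF5 such models held 60% and 47.3% and in SRSF11 28.6% and 20%, where the leading single-exon ISM models have no subtype.

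The share of the most read known model among known reads passed the test of a difference between the libraries in 0 of 5 testable members (two-sided Fisher's exact test, Benjamini-Hochberg over 1878 genes), beside 12.5% of all genes. At an unadjusted p under 0.05 there were 3 of the 5 members, beside 423 of the 1878 genes. For SRSF3 that model is SRSF3-205, with 55.6% and 65.8% of known reads (adjusted p = 0.0521, Fisher's exact test). The call was gained when known models with under 5 reads were left out (adjusted p = 0.0277), where 17.0% of all genes passed (244 of 1435). SRSF9-201 had 85.4% and 77.0%, SRSF2-202 had 94.0% and 86.2%, and SRSF7-201 had 74.8% and 73.7%.

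Genes that act with the SR proteins were read at lower levels than the leading members. The list of kinases and the importer (CLK1 to CLK4, SRPK1, SRPK2, PRPF4B, DYRK1A and TNPO3) had 9 of 9 genes with reads, at means of 3.42 to 48.2 CPM, and 0 of 9 passed the exact binomial test between the libraries. Other proteins with arginine-serine tails had 9 of 10 genes with reads, up to 171 CPM in RNPS1, with SRSF12 at 0, and 0 of 9 passed. The nonsense-mediated decay factors had 10 of 10 with reads, from 6.73 to 62.5 CPM, and 0 of 10 passed. Over all genes 5.05% passed this test. At an unadjusted p under 0.05 the lists held 2, 1 and 3 genes, in that order, beside 1681 of all 10634 genes. In the test of the genomic share, RNPS1, an RNA-binding protein of the exon junction complex, rose by 20 percentage points (adjusted p = 1.49e-05) and SMG5, a decay factor, by 46.9 (adjusted p = 1.17e-05), both by Fisher's exact test. They were 2 of 22 genes tested in these lists (9.09%), near the 10.4% of all genes, where 659 of the 662 calls were also higher in replicate 2. Over the 7 arginine-serine genes with at least 100 reads the median genomic share was 24.8%. TRA2B, a splicing activator chosen after its values were seen, had 43.6% genomic reads and 32.6% of its known reads in noncoding models.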

How the data were processed

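Direct RNA libraries of GM12878 were analysed as 1 group of 2 samples. The authors deposited raw read counts, whole numbers with no normalization, 1 row per transcript model and 1 column per replicate, beside other properties of each model (exon number and length), which the authors deposited with them. The submitters' processing notes name minimap2 and hg38; the deposited table carries TALON categories; versions and read filters are not given in the sources used here. Transcript types, positions and sequences came from GENCODE 29 (GRCh38), in which all 23533 known models and 16645 genes were found; all 35 known SR models matched in length and exon number.

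Counts were summed per gene and divided by the library total (CPM, not divided by length, since each strand gives 1 read). Levels between the libraries were compared with an exact binomial test over genes with at least 10 reads (log2 ratios with 0.5 reads added), and shares with Fisher's exact test over genes with at least 20 reads in each library (for models, 20 known reads), adjusted by Benjamini-Hochberg at 0.05. The procedure was tested on simulated data. Tools were Python 3.11.15, scipy 1.17.1, pandas 2.3.3, and, for scaling alternatives, edgeR 4.0.16 and DESeq2 1.42.0.

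For each member the text names the most read known coding, ISM and genomic model, where it had one. Left unnamed were the ISM models of SRSF6 and the genomic models of SRSF1 and SRSF5, which had few reads. Known noncoding models with at least 10 reads and NIC or NNC models with at least 10 are also named. Further models were named after their values were seen. Members, lists and tests were chosen with earlier results of these data known.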

Additional observations from a re-analysis of the deposited data

How the results depend on the processing

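No paired analysis was possible because the series has 1 group. With a replicate left out, only the other one's value remains, so such fits do not bear on stability. The summed SR level, 1363 CPM, was 1143 without genomic models, 1387 with known models only, 1378 with TMM library sizes and 1570 with the reads of AC015813.2 added to SRSF1. Levels and level tests without genomic models and with known models only were scaled to the reads of those models alone. These levels are therefore not parts of the 1363 CPM. The count of SR genes that differed in level was 1 of 8 tested with known models only, beside 18.8% of all genes (SRSF3, log2 ratio 0.30, adjusted p = 0.0385, exact binomial test), where the median of all genes moved to -0.26, and 0 under the other scalings and read minimums. The count for the most read known model was 1 without known models under 5 reads, beside 17.0% of all genes. The genomic share, 27.2%, was 27.8% without single-read models and 32.0% without ISM models in the denominator. The extra-exon share, 1.19%, was 0.693% without single-read models. Differences that changed sign, none of them past the threshold in either form, were the log2 ratios of SRSF5 without genomic models (0.021) and SRSF11 with known models only (-0.11), the genomic share of SRSF4 without single-read models (2.21 percentage points) and the known share of SRSF2 with genomic models out of the denominator (0.41 percentage points); the cause was not tested. Depth limits SRSF1, SRSF10 and SRSF11 most, at 65, 124 and 100 reads.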
